A study of Homo sapiens with 11 samples.

Results

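The genes described here are the nuclear protein-coding genes of mitochondrial respiratory chain complex I and of its named assembly factors. They were taken from the 28395 genes of the deposited count tables as those whose current RefSeq symbol begins with NDUFA, NDUFB, NDUFC, NDUFS, NDUFV or NDUFAF, which gave 46 genes. A gene was kept when its counts summed to 10 or more over the control libraries of PC3 and, separately, over those of DU145, and 43 genes were kept. Of these, 35 encode subunits of the enzyme (7 core subunits and 28 accessory subunits) and 8 encode assembly factors, NDUFAF1 to NDUFAF8. The 3 genes left out were NDUFA3, with 2 counts in the PC3 controls and 25 in the DU145 controls, NDUFA6, with no count in any control library, and the read-through gene NDUFC2-KCTD14, with no count at all. Whether these counts reflect expression or the counting annotation, which is not given in the sources used here, was not tested. NDUFA4 carries the symbol COXFA4 in RefSeq and was therefore not among the 46. All 43 genes passed the expression filter of every comparison.

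RNA was sequenced from PC3 and DU145 cells, 2 human prostate cancer cell lines, that had been stably transduced with a lentivirus for overexpression (OE) of the sialyltransferase ST6GAL1 or with a Lenti-ORF control virus. There were 3 control and 3 OE libraries from PC3, and 3 control and 2 OE libraries, labelled replicates 2 and 3, from DU145. The labels call the libraries of a group biological replicates and do not say whether a stable line was a pool or a clone, so each condition stands for 1 transduced line of each cell type. The comparison asks how the transcriptome of prostate cancer cells differs when ST6GAL1 is overexpressed.

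Complex I, or NADH:ubiquinone oxidoreductase, is the entry point of the respiratory chain: it passes electrons from NADH to ubiquinone and pumps protons across the inner mitochondrial membrane. Its peripheral arm holds the N module, where NADH is oxidised on a flavin, and the Q module, where ubiquinone is reduced, and both carry iron-sulfur clusters. Its membrane arm is built around subunits encoded by mitochondrial DNA that pump the protons, surrounded by accessory subunits from nuclear genes. Assembly factors help to put the modules together and are not part of the finished enzyme. Prostate cancer cells are known to use oxidative phosphorylation to differing degrees, and messenger RNA alone does not give the amount or the activity of the enzyme.

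Promoter sequences are shown for 4 members on which the results turn: NDUFV1 and NDUFV2, whose fitted changes in DU145 cells had opposite signs, NDUFC1, which was called lower in both lines, and NDUFB4, which was called lower in PC3 and carried the most motif matches. Each is the run of 250 bases before the RefSeq gene start (GRCh38.p14), read 5′ to 3′ on the strand of the gene, with matches to the searched motifs in capitals. The windows are chr11:67606686-67606935 (plus strand) for NDUFV1, chr18:9102449-9102698 (plus strand) for NDUFV2, chr4:139302552-139302801 (minus strand) for NDUFC1 and chr3:120596086-120596335 (plus strand) for NDUFB4.
NDUFV1: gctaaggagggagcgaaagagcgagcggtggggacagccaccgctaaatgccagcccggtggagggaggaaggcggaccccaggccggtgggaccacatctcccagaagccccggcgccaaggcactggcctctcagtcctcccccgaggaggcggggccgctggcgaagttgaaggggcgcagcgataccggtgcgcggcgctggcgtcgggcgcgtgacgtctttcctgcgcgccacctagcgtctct
NDUFV2: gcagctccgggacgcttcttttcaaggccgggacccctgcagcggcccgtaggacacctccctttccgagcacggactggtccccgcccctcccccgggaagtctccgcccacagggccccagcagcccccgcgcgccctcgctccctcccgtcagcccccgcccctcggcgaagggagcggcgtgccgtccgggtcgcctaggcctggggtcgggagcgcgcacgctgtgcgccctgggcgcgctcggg
NDUFC1: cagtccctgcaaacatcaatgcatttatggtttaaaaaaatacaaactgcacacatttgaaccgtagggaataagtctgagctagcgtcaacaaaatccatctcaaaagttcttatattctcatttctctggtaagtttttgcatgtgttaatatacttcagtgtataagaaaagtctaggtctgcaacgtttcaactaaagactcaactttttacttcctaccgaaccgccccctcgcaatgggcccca
NDUFB4: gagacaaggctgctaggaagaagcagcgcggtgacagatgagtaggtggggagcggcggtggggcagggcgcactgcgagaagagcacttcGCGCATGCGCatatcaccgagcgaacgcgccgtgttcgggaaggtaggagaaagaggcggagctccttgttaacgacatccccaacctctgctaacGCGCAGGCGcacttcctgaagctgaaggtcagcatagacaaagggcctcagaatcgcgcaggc
The window of NDUFV2 was 76.8% G and C and that of NDUFV1 70.4%, against 60.8% for NDUFB4 and 38.8% for NDUFC1. Windows were found for 37 of the 43 genes, and 4 motifs were searched on both strands. The core of the NRF1 motif, GCGCANGCG, stood in 7 of 37 windows (18.9%), compared with 12.6% of the windows of 11676 tested genes and 7.02% of all 27305 windows. NDUFB4 held 3 such matches, a pair of which lay over each other on opposite strands. The GABPA motif CCGGAAGT stood in 2 of the 37 windows (5.41%, against 6.76% of tested genes), the ERR motif CAAGGTCA in 1 (2.70%, against 0.719%) and the YY1 motif AAGATGGC in 0 (against 1.88%). NDUFV1, NDUFV2 and NDUFC1 held none of the 4. These matches describe the letters in the windows, and binding was not measured.

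Counts on genes totalled 13194485 to 18201359 per library, and a count of 3, taken as a floor, was worth 0.165 to 0.227 CPM (counts scaled to a common library total), which covers counting error only. ST6GAL1 read 2.09 to 3.07 normalized CPM in PC3 controls and 31.8 to 33.4 with OE, and 11.3 to 14.2 in DU145 controls against 298.0 and 347.8 with OE. The epithelial keratins KRT8, KRT18 and KRT19 averaged 191.2 to 563.3 CPM over the 4 groups, whereas the luminal marker KLK3 and the T cell marker CD3E were at 0 in every library and PTPRC averaged at most 0.633. The DU145 libraries were less alike than the PC3 libraries: the biological coefficient of variation was 0.0817 in DU145 and 0.0226 in PC3. The 43 genes had a median coefficient of variation between replicates of 2.82% in PC3 controls, 3.85% in PC3 OE, 7.52% in DU145 controls and 7.98% in DU145 OE, where it reached 50.5% for NDUFB7, 49.0% for NDUFS7 and 35.1% for NDUFA11. The DU145 OE library labelled replicate 2 stood apart for members rich in G and C: for the 10 members whose canonical transcript is at least 58% G and C, its median log2 deviation from the controls was -0.50, and that of OE replicate 3 was -0.07. For the 17 members under 45% the deviations were 0.05 and -0.02. For the complex I genes called in DU145 or in the comparison of the lines, and for the other DU145 values named below where it changed a call, the log2 fold change without replicate 2 is therefore given too. How much of any change in DU145 this pattern accounts for was not tested.

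**Figure D1:**
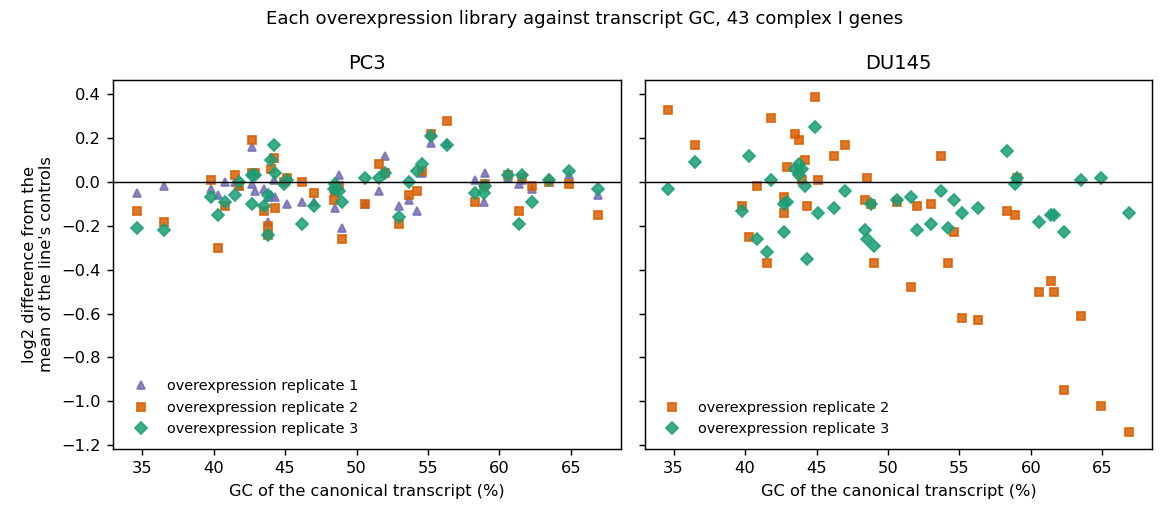
Each point is 1 of the 43 complex I genes in 1 OE library: the x axis is the percentage of G and C in its canonical transcript and the y axis the log2 difference of its normalized CPM from the mean of that line's 3 controls, with PC3 on the left and DU145 on the right. In DU145, replicate 2 (squares) falls away at high GC, with a median of -0.50 over the 10 members at 58% or more, while replicate 3 (diamonds) has a median of -0.07 and the PC3 libraries stay between -0.03 and 0.01.

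In PC3 cells, ST6GAL1 OE went with small shifts in a minority of complex I genes. The assembly factor NDUFAF3 and the N module subunit NDUFA7 were called higher, and NDUFB9, NDUFB4, NDUFC1, NDUFA5, NDUFAF2 and NDUFA10 were called lower. The levels of these 6 fell by 5.64% to 12.5%, and those of the first pair rose by 16.3% and 15.3%. Called here means that the p-value of edgeR's quasi-likelihood test, adjusted over all genes tested by the method of Benjamini and Hochberg, was under 0.05. The 2 of 43 genes higher compare with 18.8% of the 13544 genes tested, and the 6 lower with 18.5%. The number lower changed with the processing. It was 13 with counts corrected for GC content and transcript length, and 3 in DESeq2. It was 2 without OE replicate 2, 3 without OE replicate 3 and 3 without control replicate 3. In either direction DESeq2 called 5 of the 43 and 3511 of all 13544 genes, where edgeR called 18.6% of the 43 and 37.3% of all genes. For the correction and the libraries left out, the share of all genes is not given, so those counts cannot be set against the 18.5%. No member passed the further threshold of an absolute log2 fold change over 0.58, which 5.38% of all genes passed. All changes lay between -0.19 and 0.22 on the log2 scale, with a median of -0.04, and the median of all genes tested was -0.002. Of the 35 subunits 1 was called higher and 5 lower, and of the 8 assembly factors 1 was higher and 1 lower.

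NDUFAF3, which with NDUFAF4 acts in the early assembly of the Q module, read 57.0, 61.1 and 59.4 normalized CPM in the control libraries and 67.2, 72.0 and 66.7 with OE. Its log2 fold change was 0.22 (SE 0.0441, edgeR adjusted p = 0.000112), and every OE library lay above every control. NDUFAF3 lies on chromosome 3 from 49020452 to 49023495 and overlaps DALRD3 by 1054 bases, and since the strand setting of the counting is not given in the sources used here, their reads may not be fully separated. NDUFA7, an accessory subunit of the N module on chromosome 19 from 8308595 to 8321375, read 46.9, 52.1 and 52.6 in controls and 57.1, 58.9 and 58.4 with OE (log2 fold change 0.21, SE 0.0476, edgeR adjusted p = 0.000589). Again the groups did not overlap. Both calls held in all 14 alternatives other than the fold threshold, with log2 fold changes of 0.17 to 0.24 for NDUFAF3 and 0.15 to 0.24 for NDUFA7.

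Among the members called lower, NDUFB9, a subunit of the distal membrane arm encoded on chromosome 8, was the most abundant complex I transcript of PC3 per length. It read 263.7, 245.0 and 254.1 normalized CPM in controls and 235.4, 223.5 and 227.7 with OE, a fall by 0.15 on the log2 scale (SE 0.0302, edgeR adjusted p = 7.17e-05) that held in the same 14 alternatives. NDUFB4, another distal arm subunit on chromosome 3 from 120596336 to 120602507, read 87.7, 87.2 and 90.9 in controls and 78.1, 77.1 and 85.2 with OE (log2 fold change -0.15, SE 0.0404, edgeR adjusted p = 0.00377). In neither gene did the groups overlap. Without OE replicate 2 the adjusted p of NDUFB4 was 0.0546 in edgeR, at a log2 fold change of -0.12. NDUFC1, a small subunit of the proximal membrane arm, read 38.2, 35.9 and 39.9 in controls and 32.7, 31.6 and 35.5 with OE (log2 fold change -0.19, SE 0.0573, edgeR adjusted p = 0.0069). Its highest OE library lay just under its lowest control, and the call was lost without control replicate 3 (adjusted p = 0.0521) and without OE replicate 2 (adjusted p = 0.0733, both edgeR).

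The other 3 calls in PC3 were less firm. NDUFA5, a Q module subunit, read 61.7, 53.0 and 59.5 in controls and 55.9, 52.8 and 50.2 with OE, and its groups overlapped (log2 fold change -0.14, edgeR adjusted p = 0.031). NDUFAF2, an assembly factor of the N module related to the subunit NDUFA12, read 22, 20.3 and 19.6 in controls and 19.6, 17.4 and 17.4 with OE (log2 fold change -0.19, edgeR adjusted p = 0.0368). NDUFA10, a proximal arm subunit, read 146.4, 143.1 and 142.6 in controls and 135.5, 139.1 and 133.0 with OE, the smallest called change (log2 fold change -0.08, edgeR adjusted p = 0.0397). In DESeq2 none of the 3 was called, with adjusted p = 0.131 for NDUFA5, 0.164 for NDUFAF2 and 0.121 for NDUFA10. Leaving out libraries also ended these calls: control replicate 1 for all 3 (edgeR adjusted p = 0.211, 0.188 and 0.104 in the same order), OE replicate 3 for all 3 (0.193, 0.138 and 0.175), OE replicate 2 for NDUFA5 (0.0893) and NDUFAF2 (0.159), control replicate 3 for NDUFA5 (0.109) and NDUFA10 (0.0609), and OE replicate 1 for NDUFA10 (0.0953).

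None of the 7 core subunits was called in PC3 by edgeR, DESeq2 or limma-voom, and none had an unadjusted p under 0.05 in edgeR (0 of 7 each). NDUFV1, which binds NADH and the flavin, averaged 239.8 ± 1.86 normalized CPM in controls and 244.2 ± 0.976 with OE (SD, n = 3 each). NDUFV2, an iron-sulfur protein of the N module, averaged 155.9 ± 3.26 and 155.7 ± 1.54, with a 95% interval of -0.06 to 0.06 for the log2 fold change. NDUFS1, the largest subunit and carrier of several iron-sulfur clusters, averaged 154.2 ± 1.41 and 152.9 ± 1.5. In the Q module, NDUFS3 averaged 74.8 ± 1.43 and 72.4 ± 1.97, NDUFS7 55.2 ± 0.661 and 52.1 ± 2.15, and NDUFS8 132.4 ± 3.38 and 133.4 ± 1.19. These core changes ranged from -0.08 for NDUFS7 to 0.03 for NDUFV1. The widest approximate 95% interval among them, that of NDUFS7, ran from -0.17 to 0.01.

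**Figure D2:**
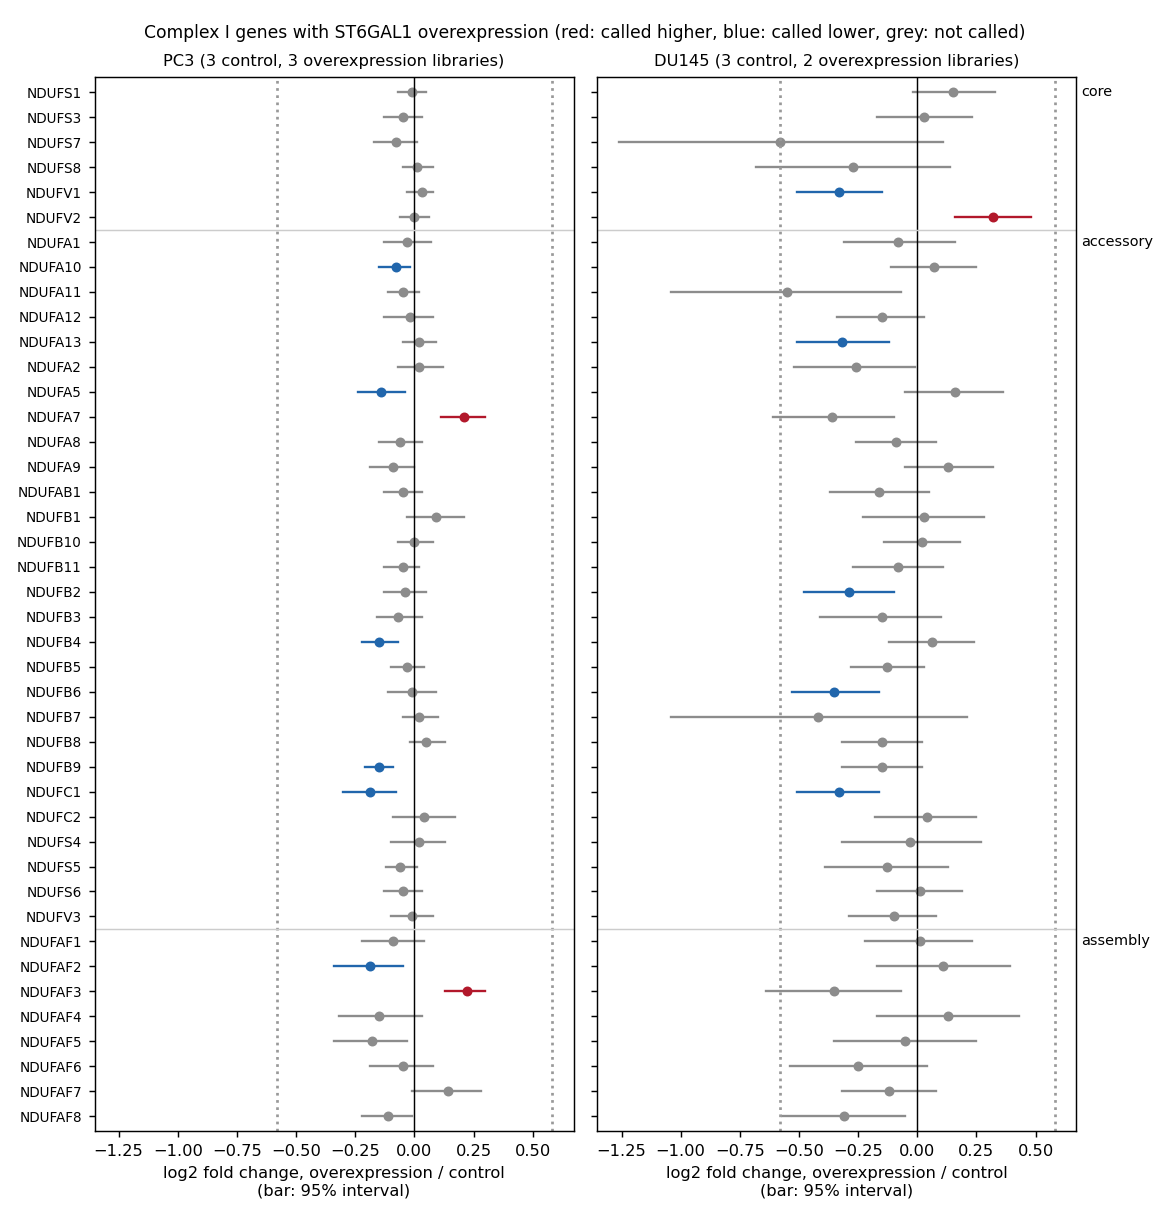
Log2 fold change between OE and control of 42 of the 43 genes (points) with its 95% interval (bars), PC3 on the left and DU145 on the right, ordered as core subunits, accessory subunits and assembly factors. Red and blue mark genes called higher and lower at an adjusted p under 0.05, and dotted lines mark 0.58 in either direction, which no called gene reaches. PC3 points lie between -0.19 and 0.22 with short bars, and DU145 points between -0.58 and 0.32 with longer bars.

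In DU145 cells, ST6GAL1 OE went with a rise of NDUFV2 and a fall of NDUFC1, NDUFB6, NDUFV1, NDUFA13 and NDUFB2. The level of NDUFV2 rose by 25.1%, and the levels of the other 5 fell by 18.4% to 21.4%. The 1 of 43 genes called higher compares with 10.7% of the 13676 genes tested, and the 5 called lower with 9.42%. No called member passed an absolute log2 fold change of 0.58, which 8.94% of all genes did. The changes ranged from -0.58 for NDUFS7 to 0.32 for NDUFV2, with a median of -0.13, and 29 of the 43 were negative, whereas the median of all genes tested was -0.002. All 6 called genes were subunits, and of the 8 assembly factors, whose changes ran from -0.35 to 0.13, 0 were called by edgeR, DESeq2 or limma-voom, although 2 had an unadjusted p under 0.05 in edgeR. The counts rested on single libraries: without OE replicate 2 there were 1 higher and 2 lower, without OE replicate 3 there were 3 and 13, and without control replicate 1 there were 0 of either. Without control replicate 2 there were 1 and 0, and without control replicate 3 there were 0 and 2. DESeq2 called 3 lower, and the correction for GC content and transcript length gave 2 higher and 12 lower. In either direction DESeq2 called 4 of the 43 and 2274 of all 13676 genes, where edgeR called 14.0% of the 43 and 20.1% of all genes. For the correction and the libraries left out, the share of all genes is not given, so those counts cannot be set against the 10.7% and 9.42%.

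NDUFV2, on chromosome 18 from 9102699 to 9134341, read 136.3, 146.4 and 127.0 normalized CPM in the DU145 controls and 179.3 and 162.6 in the OE libraries. Both OE libraries lay above all 3 controls (log2 fold change 0.32, SE 0.0818, edgeR adjusted p = 0.0126), and without OE replicate 2 the log2 fold change was 0.24 (edgeR adjusted p = 0.0446). The call was lost without control replicate 1 (edgeR adjusted p = 0.0816) or control replicate 3 (edgeR adjusted p = 0.0708). The genes beside NDUFV2 on the chromosome mostly had changes of the same sign: of the 50 nearest tested genes, 25 on each side, 42 had a positive and 8 a negative change, 24 were called higher and 2 lower, and their median log2 fold change was 0.34. That median was 0.30 in OE replicate 2 and 0.26 in OE replicate 3, and in PC3 the same stretch had a median of 0.00. Whether the change of NDUFV2 is separate from that of its neighbours was not tested.

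NDUFV1, the subunit next to NDUFV2 in the N module, went the other way. It lies on chromosome 11 from 67606936 to 67612554 and read 171.5, 168.9 and 174.5 in controls and 121.3 and 151.9 with OE (log2 fold change -0.33, SE 0.0914, edgeR adjusted p = 0.0224). Both OE libraries were under all controls, and replicate 2, which stood apart, was much the lower. Without replicate 2 the log2 fold change was -0.18 (edgeR adjusted p = 0.0982), without replicate 3 it was -0.50 (edgeR adjusted p = 5.68e-05), and with counts corrected for GC content and transcript length it was -0.08 (edgeR adjusted p = 0.202). The call was also lost when any 1 control was left out (edgeR adjusted p = 0.105 to 0.117). The transcript of NDUFV1 is 60.6% G and C and that of NDUFV2 44.9%. Among the 49 nearest genes to NDUFV1, 38 had a negative and 11 a positive change, with a median of -0.24, which was -0.40 in replicate 2 and -0.09 in replicate 3.

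NDUFC1, on chromosome 4 from 139289917 to 139302551, was the member called in both lines, and in the same direction. In DU145 it read 42.7, 43.2 and 42.4 in controls and 33.0 and 34.9 with OE (log2 fold change -0.33, SE 0.0905, edgeR adjusted p = 0.0188), so that both OE libraries lay well under tightly grouped controls. Without OE replicate 2 the value was -0.30 (edgeR adjusted p = 0.0354), and the call was lost without control replicate 1 (adjusted p = 0.0771) or replicate 2 (adjusted p = 0.0795, both edgeR). Its 50 neighbours had a median change of 0.04 in DU145 and of -0.10 in PC3. NDUFC1 shares 1047 bases with NAA15, which held 19904 counts over all libraries against 6509 for NDUFC1, and reads in that stretch may have been assigned to either gene.

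NDUFB6, a distal arm subunit on chromosome 9 from 32553001 to 32573159, read 37.0, 38.5 and 35.8 in controls and 28.7 and 29.6 with OE (log2 fold change -0.35, SE 0.0949, edgeR adjusted p = 0.0189). The OE libraries were close to each other, and the value was -0.33 without replicate 2 (edgeR adjusted p = 0.0289). It was lost without control replicate 1 (edgeR adjusted p = 0.0763) or 2 (edgeR adjusted p = 0.0903). NDUFA13, a proximal arm subunit also known as GRIM-19, read 79.7, 77.9 and 75 in controls and 54.7 and 69.6 with OE (log2 fold change -0.32, SE 0.0999, edgeR adjusted p = 0.0397). Its transcript is 61.6% G and C, and the log2 fold change was -0.16 without replicate 2 (edgeR adjusted p = 0.185), -0.50 without replicate 3 (edgeR adjusted p = 0.000177) and -0.09 after the GC and length correction (edgeR adjusted p = 0.32). NDUFB2, a distal arm subunit on chromosome 7 from 140696708 to 140706643, read 44.9, 49.1 and 44.3 in controls and 35.6 and 39.7 with OE (log2 fold change -0.29, SE 0.0958, edgeR adjusted p = 0.0449), and -0.23 without replicate 2 (edgeR adjusted p = 0.126). For NDUFA13 and NDUFB2 the call was also lost when any 1 control was left out (edgeR adjusted p = 0.07 to 0.176).

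Other core subunits were not called in DU145. NDUFS7, which carries the iron-sulfur cluster nearest to ubiquinone, read 16.7, 17.9 and 23.6 in controls and 8.41 and 17.3 with OE, with a 95% interval of -1.26 to 0.11 for the log2 fold change, and of -0.48 to 0.16 without replicate 2. The OE libraries of NDUFS7 lay far apart, and one of them lay within the range of the controls. NDUFS8 read 53.3, 57.1 and 67.7 in controls and 38.5 and 59.5 with OE, with an interval of -0.68 to 0.14, and of -0.22 to 0.22 without replicate 2. NDUFS1 averaged 132.9 ± 6.98 in controls (SD, n = 3) and 148.1 ± 19.8 with OE (SD, n = 2), and NDUFS3 43.1 ± 4.07 and 44.2 ± 3.53. With intervals of this width, changes of the size called in PC3 were not detectable for NDUFS7 or NDUFS8.

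**Figure D3:**
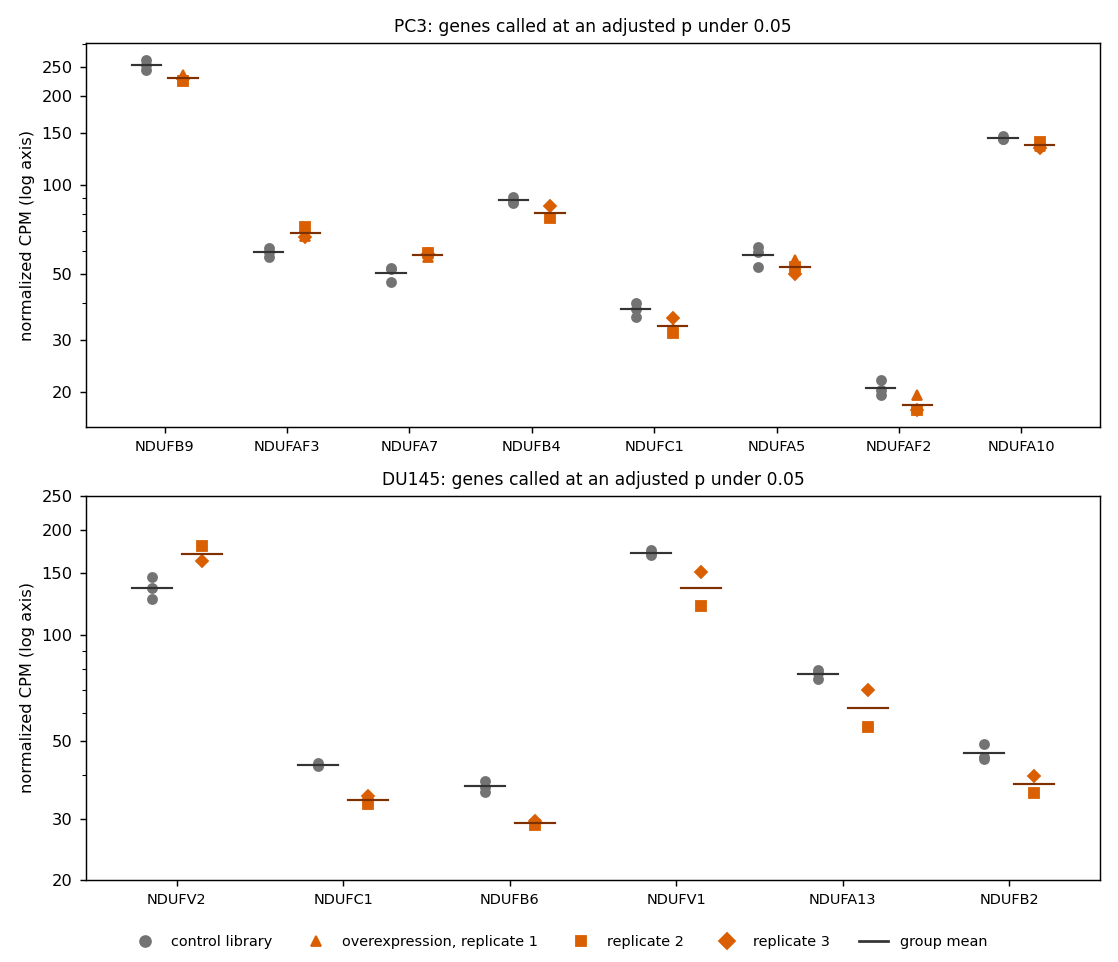
Normalized CPM (log axis) of the 8 genes called in PC3 and the 6 called in DU145, 1 point per library, with controls in grey, OE libraries in orange (triangle, square and diamond for replicates 1, 2 and 3) and group means as bars, in order of adjusted p. The genes were picked by their calls in these same libraries, so the gaps between groups are no further evidence. In DU145, replicate 2 of NDUFV1 and NDUFA13 (121.3 and 54.7) lies further from the controls than replicate 3 (151.9 and 69.6).

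Whether the lines differed in their response was tested as the DU145 change minus the PC3 change over all 11 libraries, which shares its libraries with both comparisons above. For 1 member the change was more positive in DU145 and for 6 more negative, beside 10.4% and 9.36% of 14952 genes tested. With the GC and length correction 3 were more positive, and the share of all genes under that correction is not given. None of the 7 members called without the correction differed by more than 0.58, as 8.72% of all genes did. NDUFV2 had the more positive change (difference 0.32, SE 0.0798, edgeR adjusted p = 0.00771), with 0.32 in DU145 and 0.00 in PC3. NDUFV1 had a difference of -0.36 (SE 0.0902, edgeR adjusted p = 0.008), with -0.33 in DU145 and 0.03 in PC3. Without DU145 OE replicate 2 these were 0.24 (edgeR adjusted p = 0.0185) and -0.21 (edgeR adjusted p = 0.0182), without OE replicate 3 they were 0.37 (edgeR adjusted p = 0.000158) and -0.55 (edgeR adjusted p = 6.48e-08), and the GC and length correction left 0.25 (edgeR adjusted p = 0.000487) and -0.06 (edgeR adjusted p = 0.489).

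The largest differences were those of NDUFAF3 (-0.57, SE 0.151, edgeR adjusted p = 0.017) and NDUFA7 (-0.56, SE 0.14, edgeR adjusted p = 0.0101), both called higher in PC3. In DU145, NDUFAF3 read 40.1, 45.9 and 44.6 normalized CPM in controls and 27.9 and 40.1 with OE, and NDUFA7 read 57.0, 54.2 and 53.4 in controls and 35.5 and 49.8 with OE. Neither was called within DU145, and in both genes OE replicate 2 was the lower. Without it both differences were -0.35 (edgeR adjusted p = 0.0104 for NDUFAF3 and 0.00505 for NDUFA7), and without OE replicate 3 they were -0.87 and -0.85 (edgeR adjusted p = 5.16e-08 and 1.82e-08). Without DU145 control replicate 2 or 3 the adjusted p of NDUFAF3 was 0.0512 in edgeR. NDUFB6 had a difference of -0.34 (SE 0.0956, edgeR adjusted p = 0.0157), which was -0.33 without replicate 2 (edgeR adjusted p = 0.022). NDUFA13 also had -0.34 (SE 0.0998, edgeR adjusted p = 0.0204), which was -0.19 without replicate 2 (edgeR adjusted p = 0.0869), -0.06 after the GC and length correction (edgeR adjusted p = 0.571) and -0.33 without DU145 control replicate 1 (edgeR adjusted p = 0.0501).

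The levels of complex I transcripts also differed between the lines. In control cells 31 of the 43 genes were higher in PC3 than in DU145 and 7 were lower, beside 43.5% and 42.8% of 14952 genes tested, and 20 of them differed by more than 0.58, as did 64.9% of all genes. The median difference (PC3 minus DU145) was 0.39 over the 43 genes, 0.33 over the 35 subunits and 0.79 over the 8 assembly factors, with 0.01 over all genes. Summed over the 35 subunits, normalized CPM on a scale common to all 11 libraries were 3083 ± 18 in PC3 controls, 3020 ± 9 in PC3 OE, 2415 ± 125 in DU145 controls (SD, n = 3 each) and 2254 ± 13 in DU145 OE (SD, n = 2). The assembly factors summed to 223 ± 2, 222 ± 6, 160 ± 7 and 142 ± 9 in the same order. The PC3 and DU145 counts came as separate tables, so that the line cannot be told apart from the preparation or sequencing run of its libraries.

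On this common scale, NDUFB9 averaged 253.8 ± 9.73 CPM in PC3 controls and 95 ± 8.59 in DU145 controls (SD, n = 3 each), a difference of 1.42 (SE 0.0581, edgeR adjusted p = 1.18e-14). NDUFA10 averaged 143.8 ± 2.24 and 65.8 ± 4.51 (1.13, edgeR adjusted p = 5.86e-13), NDUFB11, a distal arm subunit on the X chromosome, 89.0 ± 0.744 and 40.9 ± 2.56 (1.12, edgeR adjusted p = 6.45e-13), and the assembly factor NDUFAF2 20.6 ± 1.23 and 8.88 ± 0.745 (1.21, edgeR adjusted p = 4.02e-10). Going the other way was NDUFAF7, at 17.0 ± 0.564 and 32.1 ± 2.26 (-0.92, edgeR adjusted p = 9e-10). NDUFAF7 is a mitochondrial methyltransferase that acts during assembly. Its gene overlaps PRKD3 by 20864 bases, and their reads may not be fully separated. Over all libraries PRKD3 held 14777 counts against 4146 for NDUFAF7. The largest difference of all, 2.46 (SE 0.176, edgeR adjusted p = 6.13e-07), was that of NDUFB7, a distal arm subunit facing the intermembrane space that averaged 89.2 ± 0.857 in PC3 and 16.2 ± 1.72 in DU145. It is named here because of its size, after the values were seen, and it ranged from 1.59 to 2.52 over the 20 alternatives.

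Of the 7 core subunits, 6 were also called higher in PC3 controls, beside 43.5% of all genes tested. The differences were 1.51 for NDUFS7 (SE 0.196), 1.15 for NDUFS8 (SE 0.137), 0.79 for NDUFS3 (SE 0.0662), 0.48 for NDUFV1 (SE 0.0599), 0.21 for NDUFS1 (SE 0.0587) and 0.18 for NDUFV2 (SE 0.0537), with edgeR adjusted p = 0.00393 or less. With the GC and length correction 4 of these were smaller by more than 1.5 times, at 0.46 for NDUFS7, 0.56 for NDUFS8, 0.25 for NDUFV1 and 0.12 for NDUFS1, and all 4 were still called. The 10 members richest in G and C all had positive differences, with a median of 0.80, and NDUFS6 among them was not called. NDUFA13, also 1 of these 10, was at -0.14 with the GC and length correction. The 17 poorest had a median of 0.21. The genes beside each member did not always share its direction: the neighbours of NDUFAF2 had a median of -0.63, while those of NDUFB11, NDUFA10, NDUFB7 and NDUFAF7 had medians of 0.72, 0.70, 0.68 and -0.56. The 5 genes not called between the lines were NDUFA1, NDUFA7, NDUFA9, NDUFS4 and NDUFS6, with differences of -0.13 to 0.14.

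**Figure D4:**
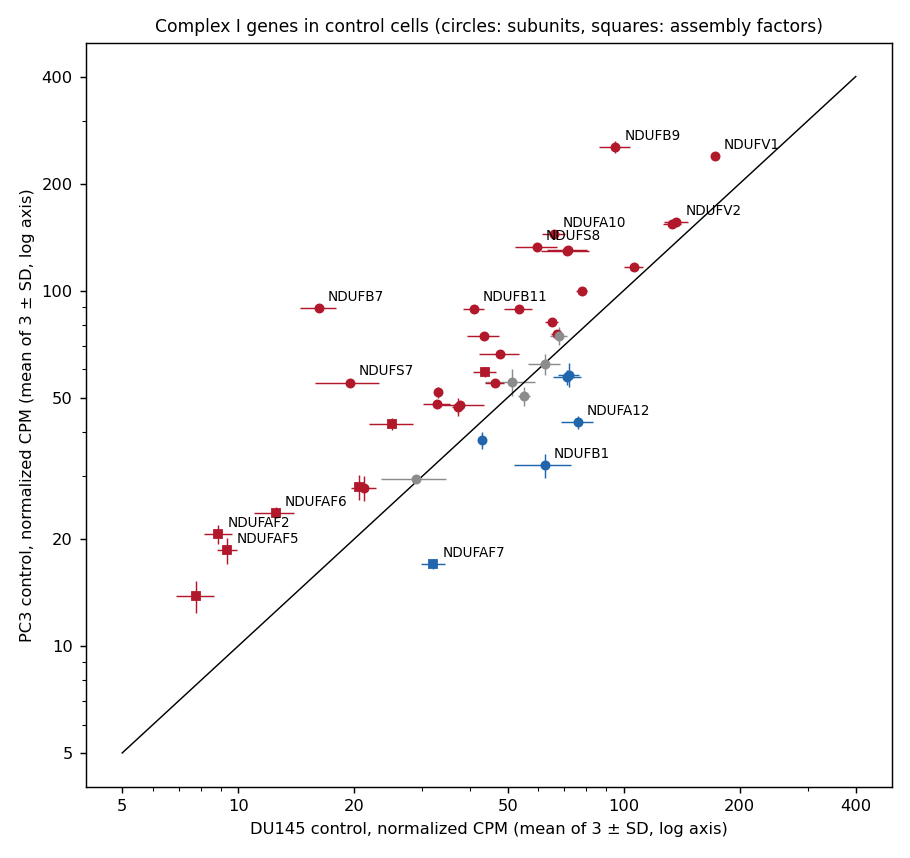
Mean normalized CPM of 42 of the 43 genes in the 3 control libraries of DU145 (x axis) and PC3 (y axis), both on log axes and on a scale common to all 11 libraries, with SD as bars, circles for subunits and squares for assembly factors. Red genes were called higher in PC3 (31) and blue genes lower (6). NDUFB7 (16.2 and 89.2) lies furthest above the diagonal of equal levels.

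Per kilobase of the GENCODE canonical transcript, the most abundant members in PC3 controls were NDUFB9 (367.3 ± 14.1 CPM per kb), NDUFS5 (261.0 ± 2.53) and NDUFA11 (226.6 ± 6.05; SD, n = 3 each), which differed from each other beyond their SD. In DU145 controls NDUFB1 (197.1 ± 33.7 CPM per kb) and NDUFV2 (159.9 ± 11.5) were among the highest, and their ranges of 1 SD overlapped. The lowest in PC3 were NDUFAF5 (3.41 ± 0.289), NDUFAF4 (5.75 ± 0.595) and NDUFA9 (7.42 ± 0.498), and in DU145 NDUFAF5 (1.72 ± 0.102), NDUFAF4 (3.23 ± 0.362) and NDUFV3 (5.75 ± 0.055). This order depends on the transcript model, since NDUFA9, NDUFA5 and NDUFS1 have canonical transcripts of 8356, 5496 and 11660 bases. Per kilobase of coding length, NDUFB9, NDUFS5 and NDUFA11 were again the highest 3 in PC3, NDUFB1, NDUFA1 and NDUFS5 the highest in DU145, and NDUFA5 rose from place 38 to place 17 in PC3. Assembly factors took the lowest 3 places in both lines by coding length, with NDUFAF7, NDUFAF5 and NDUFAF6 in PC3 at 12.8, 18.0 and 23.8 CPM per kb and NDUFAF5, NDUFAF6 and NDUFAF4 in DU145 at 9.04, 12.5 and 14.8.

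By module, 18.8% of all genes tested being higher in PC3 and 18.5% lower, 2 of 8 in the proximal membrane arm and 2 of 11 in the distal membrane arm were lower, 1 of 9 in the N module was higher and 1 of 6 in the Q module was lower. In DU145, where 10.7% of all genes were higher and 9.42% lower, 2 of 8 proximal arm and 2 of 11 distal arm members were lower, 1 of 9 N module members was higher and 1 lower, and 0 of 6 Q module members were called by edgeR, DESeq2 or limma-voom or had an unadjusted p under 0.05 in edgeR. Differences between modules were not tested. The acyl carrier protein NDUFAB1, placed in no module, was not called in either line (-0.05 in PC3 and -0.16 in DU145).

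The 7 complex I subunits encoded by mitochondrial DNA were measured in the same libraries. In PC3 all 7 had positive changes, from 0.09 to 0.30 with a median of 0.17, and 6 were called higher, beside 18.8% of all genes. By adjusted p these were led by MT-ND4L (925.8 to 1058.8 CPM on the common scale, log2 fold change 0.19, edgeR adjusted p = 1.33e-08) and MT-ND4 (8026.0 to 9047.6, 0.17, edgeR adjusted p = 1.84e-07). The largest change, that of MT-ND6 (0.30), was not called by edgeR (adjusted p = 0.0885), whereas DESeq2 and limma-voom called all 7. Whether the 7 changed separately from each other was not tested. In DU145 0 of the 7 were called by edgeR, DESeq2 or limma-voom or had an unadjusted p under 0.05 in edgeR (median 0.03, range -0.05 to 0.22). In the test of the difference between the lines 0 of the 7 were called by these tools, and 2 had an unadjusted p under 0.05 in edgeR. All 7 were called higher in PC3 than in DU145 controls, beside 43.5% of all genes, with a median of 0.65. Complex I factors that do not carry an NDUFAF name were lower for 3 of 11 in PC3, beside 18.5% of all genes, among them ECSIT (-0.22) and TMEM70 (-0.17). In DU145 they were lower for 1 of 11, beside 9.42%, and this was DMAC2 (-0.33, and -0.17 with edgeR adjusted p = 0.178 without OE replicate 2).

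The other complexes of the respiratory chain are given beside the 37.3% of all genes tested that were called in either direction in PC3 and the 20.1% in DU145. In PC3, complex II had 1 of 4 subunits higher (SDHA, 0.21) and 1 lower (SDHB, -0.22), complex III 2 of 9 lower (CYC1, -0.13, and UQCRC1, -0.08), complex IV 1 of 10 higher (COX7B, 0.17) and 2 lower (among them COX5A, -0.16), and complex V 1 of 17 higher and 3 lower (among them ATP5PF, -0.13). Their medians were 0.03, -0.03, -0.04 and -0.05, beside -0.03 for the complex I subunits. In DU145, 2 of 9 subunits of complex III (UQCR10, -0.42, and UQCRQ, -0.36) and 1 of 17 of complex V (ATP5PO, -0.27) were lower, and 0 of 4 in complex II and 0 of 11 in complex IV were called by edgeR. Without DU145 OE replicate 2, UQCR10 was at -0.31 and ATP5PO at -0.33, both still called, and UQCRQ was at -0.27 (edgeR adjusted p = 0.0565). The lists of complexes II and IV each had 2 genes at an unadjusted p under 0.05 in edgeR, and DESeq2 and limma-voom called 0 in complex II and 1 in complex IV. Leaving out DU145 OE replicate 2 made some changes larger and others smaller. SDHC of complex II went from -0.22 to -0.37 and CYC1 of complex III from 0.12 to 0.31, while COX8A of complex IV went from -0.48 to -0.25. The DU145 medians were 0.06, -0.08, -0.13 and -0.04 for complexes II to V and -0.13 for the complex I subunits. Among 11 tested regulators of respiratory genes, TFAM, which drives transcription of mitochondrial DNA, was lower in PC3 (-0.23, edgeR adjusted p = 3.96e-06) and PPRC1 was lower by 0.12 on the log2 scale, beside 18.5% of all genes lower. In DU145 0 were called by edgeR, DESeq2 or limma-voom, and 2 had an unadjusted p under 0.05 in edgeR. TFAM and YY1 had more positive changes in DU145 than in PC3 (differences of 0.46 and 0.22), beside 10.4% of all genes, and without DU145 OE replicate 2 these were 0.32 (edgeR adjusted p = 0.00432) and 0.17 (edgeR adjusted p = 0.0885). Of 13 genes for iron-sulfur cluster assembly, 4 were lower in PC3, beside 18.5% of all genes, among them HSPA9 (-0.21) and BOLA3 (-0.20). In DU145 1 was lower, beside 9.42%, and this was FDX2 (-0.46, and -0.29 with edgeR adjusted p = 0.106 without OE replicate 2).

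**Figure D5:**
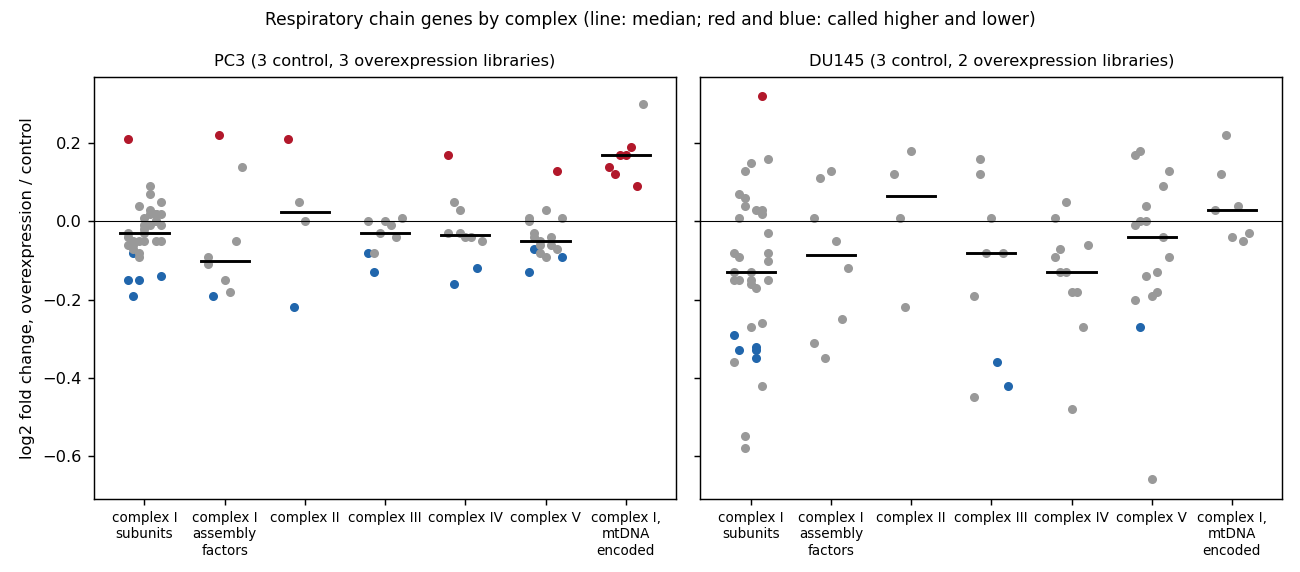
Log2 fold change between OE and control of each tested gene (points) of the complex I subunits, complex I assembly factors, complexes II to V and the 7 complex I subunits encoded by mitochondrial DNA, with the median of each list as a line, PC3 on the left and DU145 on the right, and red and blue for genes called higher and lower. In PC3 the nuclear lists have medians between -0.10 and 0.03, and the mitochondrial list lies above 0 throughout with a median of 0.17. In DU145 the medians lie between -0.13 and 0.06.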

How the data were processed

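The authors deposited raw gene counts, 1 table per cell line, keyed by Entrez identifier. Per the labels and the study's methods, polyadenylated RNA was made into stranded libraries and read as single reads, adapters were trimmed with Cutadapt, reads were aligned to hg38 with HISAT2 and counted with featureCounts, and the authors tested with limma; the counting annotation and strand setting are not given in the sources used here. Identifiers were matched to RefSeq symbols for 97.7% of 28395 genes. Totals of 13194485 to 18201359 counts per library set the precision, and a count of 3 served as floor.

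Each line was fitted with edgeR 4.0.16 in R 4.3.3 (filterByExpr, TMM factors, robust quasi-likelihood test, Benjamini-Hochberg adjustment over all tested genes), the interaction and the control comparison over all 11 libraries. Levels are TMM-normalized CPM, scaled within a line for the OE comparisons and over all libraries between lines. The intervals called 95% are 1.96 standard errors either way. This is an approximation, and with so few libraries it is narrower than the quasi-likelihood test implies. For NDUFA11 in DU145 it ran from -1.04 to -0.07, although the unadjusted p of edgeR's test was 0.0791. The code was tested on simulated data. Alternatives were DESeq2 1.42.0, limma-voom (limma 3.58.1), RLE factors, no filter, 10 counts in every library, a fold threshold of 0.58, a GC and length offset (spline with 5 degrees of freedom), a replicate block, and leaving out each library. Pairs of replicates differed by more than sampling noise, and the labels do not say that they were separate cultures, so p-values measure the spread between these libraries.

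The members, gene lists and tests were chosen with earlier results of these data known. Named with values were core subunits, up to 12 called members per OE comparison, up to 10 in the interaction, up to 6 between lines, the highest and lowest 3 per length, and up to 2 called genes of each other list, by smallest adjusted p. The values of 1 member are not reported here; it is counted in the totals.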

Additional observations from a re-analysis of the deposited data

Results flagged for a closer look

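For 7 of the 43 complex I genes the change with ST6GAL1 OE differed between the lines, beside 19.7% of the 14952 genes tested. This was a test of the difference itself (DU145 change minus PC3 change, log2 scale, edgeR's quasi-likelihood test, adjusted p under 0.05). Values are given for 6 of them. The difference was 0.32 for NDUFV2, -0.36 for NDUFV1, -0.56 for NDUFA7, -0.34 for NDUFB6, -0.57 for NDUFAF3 and -0.34 for NDUFA13. In DU145 each of these rests on 2 OE libraries. The part that the GC-dependent deviation of DU145 OE replicate 2 has in them was not tested.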

How the results depend on the processing

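With limma-voom, RLE factors, no filter or at least 10 counts in every library, all 8 counts of called complex I genes stayed within 1.5 times the values reported. With the fold threshold of 0.58 added, 0 genes were called higher or lower in either line or in the interaction, and 16 higher and 4 lower between the controls. DESeq2 called 3 lower in PC3 and 3 lower in DU145. The GC and length offset gave 13 lower in PC3, 2 higher and 12 lower in DU145, and 3 with a more positive change in DU145 than in PC3. Leaving out 1 library at a time gave 2 to 7 lower in PC3 (3 without control replicate 3, 2 without OE replicate 2 and 3 without OE replicate 3), 0 to 3 higher and 0 to 13 lower in DU145, and 1 to 5 more positive and 4 to 14 more negative changes in DU145 than in PC3. In DU145 without control replicate 2 there were 1 higher and 0 lower, and without control replicate 3 there were 0 and 2; 5 and 14 in the interaction came without DU145 OE replicate 3. A DU145 OE group of 1 library was assumed to vary like the other groups. The cause of these shifts was not tested. Apart from DESeq2 within each line and the fold threshold, the share of all genes called under each setting is not given.

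The replicate block gave 12 lower in DU145 and 3 more positive changes in DU145 than in PC3, and changed no other count by more than 1.5 times. Block and GC offset together gave 13 lower in PC3, 3 higher and 14 lower in DU145, and 4 more positive and 10 more negative changes. Same-numbered deviations from the group means had correlations of -0.002, 0.075 and 0.061 in PC3, all small, and 0.087 and 0.293 in DU145. The 2 DU145 OE libraries mirror each other about their mean, so these values cannot decide whether the DU145 samples were paired. NDUFA13 reversed: its interaction was 0.01 with block and offset together, and its difference between controls was -0.14 with the offset and -0.14 with both. With 2 or 3 libraries a group, changes smaller than the 95% intervals given were not detectable.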
